A study of Homo sapiens with 22 samples.

Results

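KDAC6, encoded by HDAC6, is a lysine deacetylase with 2 catalytic domains, and the libraries described here came from HT1080 lines in which one or the other domain had been disabled. HT1080 is an established human fibrosarcoma cell line. The comparison set the 4 KDAC6H611A libraries, from cells with a mutated second domain, against KDAC6H216A replicates 2, 3 and 4, from cells with a mutated first domain. These 7 samples, of 22 in the series, were picked by line from their column labels, except that KDAC6H216A replicate 1 was kept out of the fit because its values stood apart. It is given beside the results, as are the 4 libraries of the unedited parental cells (WT). No line in this comparison was given a drug. In both lines CRISPR/Cas9 cutting and a repair template replaced an active-site histidine with alanine in the endogenous gene, and both templates carried a silent SphI site. The KDAC6H216A line was a pool of 3 independently derived lines. The methods describe outgrowth from single colonies and mention no pooling for KDAC6H611A, so the mutation and the history of a clone cannot be told apart.

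KDAC6 is mainly a cytoplasmic enzyme. It is known for removing acetyl groups from alpha-tubulin, cortactin and HSP90, and it also carries a ubiquitin-binding domain through which it takes part in aggresome formation. Each catalytic domain has its own active site with a conserved histidine, and the position of the edited histidine is the designed difference between the lines. The gene is transcribed from the plus strand of chromosome X and spans chrX:48801377-48824982 (hg38, GENCODE release 44). The first-domain codon lies in exon 9 of 29, at chrX:48808046-48808048, and the second-domain codon in exon 20, at chrX:48817365-48817367. The unedited reference around each codon is printed to show where the histidine codon replaced in each line lies. The templates also carried silent changes at neighbouring codons, which are not marked. Capitals mark the histidine codon that was replaced, and each window has 63 bases on the plus strand.
first-domain codon, chrX:48808016-48808078: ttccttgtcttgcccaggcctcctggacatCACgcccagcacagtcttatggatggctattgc
second-domain codon, chrX:48817335-48817397: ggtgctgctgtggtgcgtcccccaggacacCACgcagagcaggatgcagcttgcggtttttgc
The first 17 bases of the first-domain window are intronic. Over the 46 bases that are coding in both windows, aligned on the codon, 26 were the same.

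Total counts ran from 7324519 to 12752463 over the 7 libraries, and KDAC6H216A replicate 1 had 6837390. Mitochondrial rRNA genes took 0.195% of the counts in KDAC6H216A replicate 1, against 13.1% to 15.1% in the other libraries of that line. KDAC6H611A replicate 4 likewise stood apart, at 0.173% against 20.98% to 38.0% in replicates 1 to 3. The mesenchymal markers listed for HT1080 were abundant in both lines, and their summed level was 3295 to 5520 CPM (the count of a gene relative to the scaled library total) in KDAC6H611A and 6842 to 7283 CPM in KDAC6H216A replicates 2 to 4. Summed leukocyte markers reached at most 5.84 CPM in any of these libraries, with LYZ the most abundant. Epithelial markers summed to 189 to 352 CPM in KDAC6H611A and 271 to 280 CPM in KDAC6H216A replicates 2 to 4, with KRT8 the most abundant, and 2 of the 12 epithelial markers had no count in any library of the lines or WT. Endothelial markers summed to 100 to 160 CPM and 127 to 135 CPM, with TIE1 the most abundant. Of the 4 epithelial and 3 endothelial markers tested, 0 passed the threshold by edgeR or DESeq2, with 1 and 0 at an unadjusted p under 0.05. The 1 leukocyte marker tested, LYZ, was higher in KDAC6H611A by both tools (1.57 on the log2 scale) and lost its call with KDAC6H216A replicate 1 in the fit or without KDAC6H611A replicate 4. All CPM values were scaled by TMM factors over the WT, KDAC6H216A and KDAC6H611A libraries.

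HDAC6 mRNA was lower in the line with the mutated first domain. Its level was 5.37, 5.25 and 6.74 CPM in KDAC6H216A replicates 2, 3 and 4, and 13.1, 11.1, 9.55 and 14.3 CPM in KDAC6H611A replicates 1 to 4. The groups did not overlap, and the level of 5.89 CPM in KDAC6H216A replicate 1 fell with the other libraries of its line. WT libraries had 9.33, 15.9, 15.3 and 12.9 CPM, which overlaps KDAC6H611A and not KDAC6H216A. On the log2 scale the difference, KDAC6H611A minus KDAC6H216A, was 1.16 (SE 0.19, n = 4 and 3, adjusted p = 0.00121, edgeR quasi-likelihood test). The call was lost without KDAC6H216A replicate 3, where the difference was 1.09 with an adjusted p of 0.0115.

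**Figure D1:**
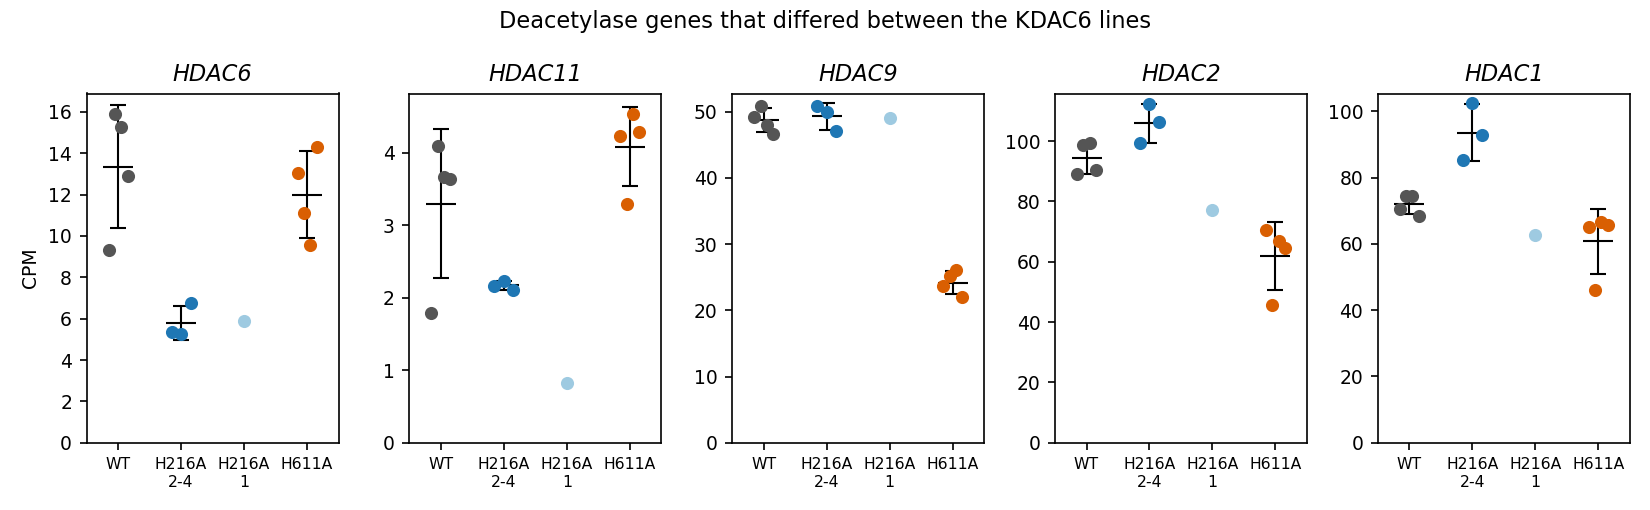
CPM (y axis, from 0, with its own scale in each panel) of the 5 deacetylase genes past adjusted p below 0.01, in WT (n = 4), KDAC6H216A replicates 2 to 4 (n = 3), KDAC6H216A replicate 1 and KDAC6H611A (n = 4). Points are libraries, and bars give the mean and SD; HDAC6 lay at 5.25 to 6.74 CPM in KDAC6H216A replicates 2 to 4 and at 9.55 to 14.3 CPM in KDAC6H611A.

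Across the transcriptome, 3041 of 15615 genes tested (19.5%) passed an adjusted p of 0.01. Of these, 1530 were higher in KDAC6H611A (9.80% of genes tested) and 1511 were lower (9.68%). The rises were larger than the falls: 1167 of the higher genes and 403 of the lower genes differed by at least 1 on the log2 scale. The 2 sets differed in make-up, with 1104 of the higher and 1472 of the lower genes protein-coding. More genes had a count in the KDAC6H611A libraries (24328 to 24982) than in KDAC6H216A replicates 2 to 4 (23018 to 23249), and KDAC6H216A replicate 1 had 24568. The number of calls rested on the libraries used. It was 1485 with KDAC6H216A replicate 1 in the fit and 2092 without KDAC6H611A replicate 4. Without KDAC6H216A replicate 2, 3 or 4 it was 1419, 1087 and 1201, without KDAC6H611A replicate 1 it was 1690, and without KDAC6H611A replicate 2 it was 4327. The split also moved with the scaling: 1952 higher and 973 lower with upper quartile scaling, 1342 and 603 with the total count only, and 1326 and 2381 with offsets for GC content and length. KDAC6H611A replicate 2 was the lowest library of its line in 1136 of the 1511 lower genes (75.2%), against 46.8% of all genes tested. It was the highest in 835 of the 1530 higher genes (54.6%), against 30.8% of all, and it also had the highest share of mitochondrial rRNA, 38.0%. The part of these library differences in the results was not tested.

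The largest differences by fold were genes present in one line and at or near 0 counts in the other. Among the genes nearly absent from KDAC6H611A were EPB41L3, a membrane skeleton protein that links transmembrane proteins to actin, and FLNC, the muscle filamin that crosslinks actin. EPB41L3 had 112, 121 and 116 CPM in KDAC6H216A replicates 2 to 4 and no count in any KDAC6H611A library, so it was at least 1412-fold lower against a floor of 3 counts over the 4 libraries. It had 92.1 CPM in KDAC6H216A replicate 1 and 167 to 182 CPM in WT. FLNC had 76.6, 79.1 and 88.2 CPM in KDAC6H216A and 0, 0.150, 0.329 and 0.313 CPM in KDAC6H611A, a log2 difference of -8.36 (SE 0.24, adjusted p = 1.29e-08). The WT level of FLNC was 133 to 149 CPM, above both lines.

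SERPINB5 (maspin, a serpin family member) had 16.4, 18.2 and 18.4 CPM in KDAC6H216A and no count in KDAC6H611A, at least 215-fold lower. PDPN, the mucin-type membrane glycoprotein podoplanin, had 10.55, 10.8 and 9.98 CPM against no count, at least 127-fold lower. These levels of PDPN in KDAC6H216A were above the WT levels of 2.69 to 3.36 CPM, whereas SERPINB5 was at 15.1 to 16.7 CPM in WT. CD9, a tetraspanin, and DLL1, a Notch ligand, were also without a count in KDAC6H611A and at least 40.4-fold and 35.7-fold lower. BEX1, EDNRA (an endothelin receptor) and GDNF (a neurotrophic factor) each had 1 count in all of KDAC6H611A. Their ratios, KDAC6H216A over KDAC6H611A, were 382 (95% interval 68.1 to 15132), 240 (42.7 to 9532) and 167 (29.5 to 6625). ACP7, listed under its older symbol PAPL, had 3 counts there and a ratio of 76.5 (25.8 to 374). These intervals and floors cover counting error only.

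In the other direction, PAGE2, a cancer-testis antigen gene of chromosome X, had 35.8, 21.4, 39.7 and 36.5 CPM in KDAC6H611A and no count in any KDAC6H216A library, at least 389-fold higher. PAGE2 has near-identical relatives on that chromosome, between which the counting could split reads. MAGEC2, another cancer-testis antigen gene, had 37.5, 20.7, 44.2 and 34.9 CPM against 3 counts in all of KDAC6H216A replicates 2 to 4, a ratio of 403 (95% interval 138 to 1959). WT lay between the lines for MAGEC2, at 7.92 to 8.54 CPM. SLITRK4, a neuronal membrane protein, and AFF2, a nuclear protein of the AF4 family, both on the X chromosome, were without a count in KDAC6H216A replicates 2 to 4 and at least 102-fold and 56.4-fold higher. SLITRK4 had 5.99 to 11.8 CPM and AFF2 4.496 to 5.74 CPM in KDAC6H611A, and WT was at or below 0.135 and 0.595 CPM.

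MARCKS, a kinase substrate that binds actin at the plasma membrane, had 8.09, 6.74, 12.1 and 9.29 CPM in KDAC6H611A against 1 count in KDAC6H216A replicates 2 to 4 (ratio 320, 95% interval 57.0 to 12663). The protease gene HTRA3, the carboxypeptidase gene CPVL, VAMP8 (a SNARE of vesicle fusion), CITED4 (a transcriptional coactivator) and ADARB2 (an RNA-binding member of the ADAR family) completed the 10 largest rises. Each had no count in KDAC6H216A replicates 2 to 4 and was at least 26.5-fold to 42.8-fold higher. ADARB2 also had no count in any WT library. All 20 of these genes kept their call in each of the 7 fits that left out a library and with KDAC6H216A replicate 1 included. They were chosen from these same libraries for large differences without overlap, so this is no independent support for them.

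**Figure D2:**
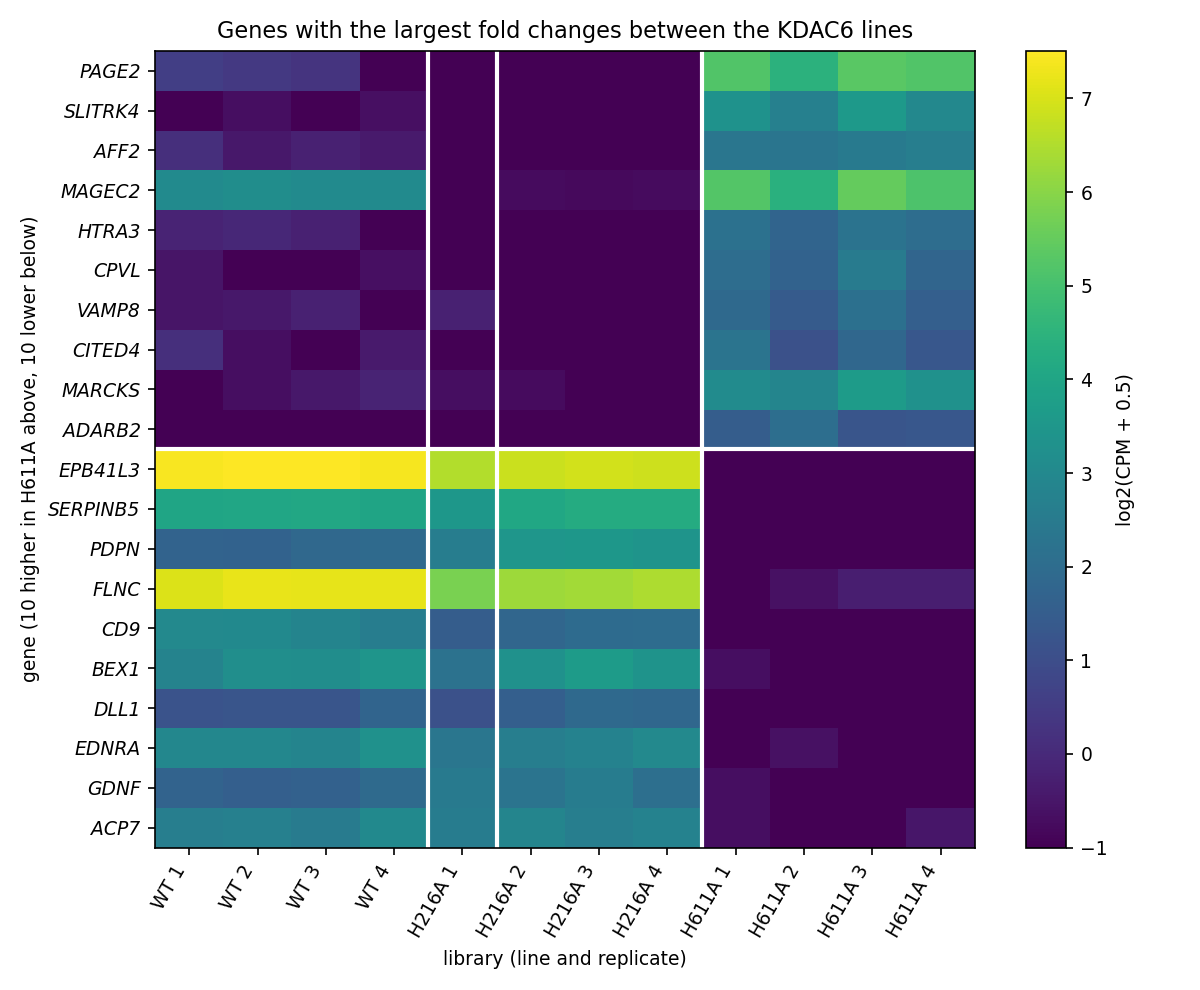
Heat map of log2(CPM + 0.5) for the 10 protein-coding genes with the largest rises and the 10 with the largest falls in KDAC6H611A against KDAC6H216A (rows), in each library (columns; white lines part WT, KDAC6H216A replicate 1, KDAC6H216A replicates 2 to 4, and KDAC6H611A). EPB41L3 and FLNC are high in every WT and KDAC6H216A library and at 0 to 0.329 CPM in KDAC6H611A; MAGEC2 is intermediate in WT, at 7.92 to 8.54 CPM.

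By the size of the change in mRNA level rather than the fold, the falls were in COL6A3 (a collagen VI chain), TFRC (the transferrin receptor), TUBA1B (an alpha-tubulin), ITGA6 (the laminin-binding integrin alpha 6) and PPIA (cyclophilin A). TFRC had 1056, 1291 and 1239 CPM in KDAC6H216A and 453, 281, 602 and 406 CPM in KDAC6H611A, a log2 difference of -1.36 (SE 0.20, adjusted p = 0.000637). COL6A3 had 2373, 2565 and 2611 CPM against 1174, 849, 1404 and 1283 CPM, with a log2 difference of -0.99 (SE 0.17, adjusted p = 0.00155). In these genes WT lay between the lines: TFRC was at 683 to 781 CPM and COL6A3 at 1828 to 2067 CPM. ITGA6 differed by -1.22 and PPIA by -0.95 on the log2 scale. COL6A3 and PPIA lost their calls in 2 of the 7 fits without a library.

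The rises by level were in MDM2 (a ubiquitin ligase), LAMB1 (a laminin chain), VMP1 (a membrane protein needed for autophagosome formation), FAM241A (listed as C4orf32) and MMP1 (interstitial collagenase). MMP1 had 2.07, 3.96 and 5.17 CPM in KDAC6H216A and 233, 149, 285 and 215 CPM in KDAC6H611A, with 50.4 to 59.8 CPM in WT. Its log2 difference was 5.97 (SE 0.29, adjusted p = 6.55e-07), and KDAC6H216A replicate 1, at 2.95 CPM, lay with its line. MDM2 had 334, 312 and 297 CPM against 658, 567, 656 and 596 CPM, with WT between at 409 to 432 CPM and a log2 difference of 1.09 (SE 0.12, adjusted p = 0.000113). LAMB1 rose by 0.92 (SE 0.12), with 319 to 335 CPM in WT and 324 to 343 CPM in KDAC6H216A. The calls of VMP1 and FAM241A did not hold with KDAC6H216A replicate 1, which had 277 and 591 CPM of these genes, and their adjusted p was then 0.0144 and 0.403.

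Among the other deacetylase genes, 4 differed. HDAC9, a class IIa enzyme, had 50.9, 49.9 and 47.0 CPM in KDAC6H216A and 23.6, 25.2, 26.01 and 21.9 CPM in KDAC6H611A, a log2 difference of -0.91 (SE 0.11, adjusted p = 0.000139). WT had 46.7 to 50.9 CPM, which overlaps KDAC6H216A and not KDAC6H611A. The class I enzymes HDAC2 and HDAC1 fell by 0.67 (SE 0.12, adjusted p = 0.00232) and 0.51 (SE 0.12, adjusted p = 0.00774) on the log2 scale. The class IV enzyme HDAC11 was low throughout, at 2.17, 2.24 and 2.10 CPM against 4.23, 3.30, 4.53 and 4.28 CPM, and rose by 1.02 (SE 0.23, adjusted p = 0.00673). With KDAC6H216A replicate 1 in the fit the calls of HDAC1, HDAC2 and HDAC11 were lost (adjusted p = 0.0619, 0.0102 and 0.0146), and the first and the last held in few of the 7 fits without a library (2 and 1). Of the 17 deacetylase genes tested, 2 were higher and 3 lower, HDAC6 included. HDAC9 and HDAC11 lie on chromosomes, described below, of which parts were shifted as a group. With genes on chromosomes 2, 3, 7, 13, 18 and 20 left out, 1 of 14 deacetylase genes was higher and 2 were lower. HDAC10 missed the threshold (0.97, SE 0.25, adjusted p = 0.0129), and KDAC6H216A replicate 1, at 30.04 CPM, lay within the KDAC6H611A range. The sirtuins tested also missed it, among them SIRT1 (-0.45, SE 0.13, adjusted p = 0.0202) and SIRT7 (0.52, SE 0.18, adjusted p = 0.0403), and SIRT4 was too low to be tested.

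Of the 22 KDAC6 substrates, partners and the opposing acetyltransferase tested, 0 were higher and 4 were lower (18.2%, against 9.68% over all genes tested). These were the alpha-tubulin genes TUBA1B, TUBA1A and TUBA4A and CYLD, a deubiquitinase that binds KDAC6. TUBA1B had 1281, 1533 and 1447 CPM in KDAC6H216A and 766, 437, 941 and 686 CPM in KDAC6H611A (log2 difference -0.90, SE 0.20, adjusted p = 0.0063). KDAC6H216A replicate 1 had 591 CPM of TUBA1B, within the range of KDAC6H611A, and with it in the fit the adjusted p was 0.114. CYLD fell by 0.54 (SE 0.10) and kept its call with that library (adjusted p = 0.00371). With scaling by the total count only, 0 of the 22 were called, CYLD included. The other members, among them the tubulin acetyltransferase gene ATAT1, cortactin (CTTN) and HSP90AA1, did not pass the threshold. In the wider tubulin family 6 of 18 tested were lower and 1, TUBB4A, was higher, from 2 counts in KDAC6H216A replicates 2 to 4 to 0.988 to 2.74 CPM (ratio 27.3, 95% interval 7.22 to 230). No tubulin was called with KDAC6H216A replicate 1 in the fit, where TUBB4A was not tested. With the total count only, 0 tubulins were lower and 1 was higher. TUBB, the most abundant tubulin measured, stood at 1363, 1399 and 1370 CPM against 975, 653, 1154 and 1045 CPM and missed the threshold (adjusted p = 0.0688). Reads of near-identical alpha-tubulin genes may be divided between members by the counting.

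Genes of mitosis were lower in KDAC6H611A as a group. Of 64 spindle and kinetochore genes tested, 53 were lower and 0 higher, with a median log2 difference of -0.64 against 0.04 over all genes tested. BUB1, a kinase of the spindle checkpoint, had 107, 122 and 117 CPM in KDAC6H216A and 42.3, 34.9, 47.7 and 37.4 CPM in KDAC6H611A (log2 difference -1.40, SE 0.11, adjusted p = 1.26e-05). NDC80, an outer kinetochore subunit, had 39.8, 39.7 and 36.7 CPM against 13.9, 11.8, 13.3 and 13.3 CPM (-1.45, SE 0.10, adjusted p = 6.37e-06). Both were nearer to KDAC6H216A in WT, at 72.1 to 96.1 CPM for BUB1 and 31.6 to 35.9 CPM for NDC80. PLK1, AURKA, CDK1, CCNB2 and TOP2A fell by 0.64, 0.77, 0.58, 0.59 and 0.57 on the log2 scale. MKI67, the most abundant member, stood at 594, 592 and 581 CPM against 437, 395, 419 and 399 CPM but missed the threshold (-0.40, SE 0.11, adjusted p = 0.019).

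The proliferation genes also depended on the libraries and the scaling. Among the 64 mitotic genes, 33 were lower and 0 higher with KDAC6H216A replicate 1 in the fit, 46 and 0 without KDAC6H611A replicate 4, and 10 and 0 with scaling by the total count only. The median remained between -0.59 and -0.67 in these fits and without KDAC6H611A replicate 2, and it was -0.50 with upper quartile scaling. In 42 of the 53 genes the KDAC6H611A libraries also lay below KDAC6H216A replicate 1, against 1073 of the 1511 lower genes over the transcriptome. KDAC6H611A replicate 2 was the lowest library in 48 of the 53.

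Replication-dependent histone genes, transcribed in S phase to package new DNA, showed the lowest median of the lists, -0.98. Of the 38 tested, 28 were lower and 0 higher. H2AC8, a histone H2A gene, had 56.5, 58.2 and 59.7 CPM in KDAC6H216A and 19.7, 12.7, 23.5 and 16.1 CPM in KDAC6H611A (-1.57, SE 0.15, adjusted p = 3.6e-05). H1-4, the most abundant of them, had 534, 521 and 538 CPM against 248, 220, 262 and 324 CPM (-0.90, SE 0.13, adjusted p = 0.000672). These genes lack poly(A) tails and many are near-identical in sequence, so values of single copies are uncertain. Of 45 DNA replication genes, 15 were lower and 0 higher (median -0.38), led by RPA3 (-0.96, SE 0.20, adjusted p = 0.00499), a subunit of the single-strand binding protein, and POLE2 (-0.84, SE 0.19, adjusted p = 0.00686), a polymerase epsilon subunit. With KDAC6H216A replicate 1 in the fit 21 histone genes and 3 replication genes were lower, and with the total count only 18 and 0.

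**Figure D3:**
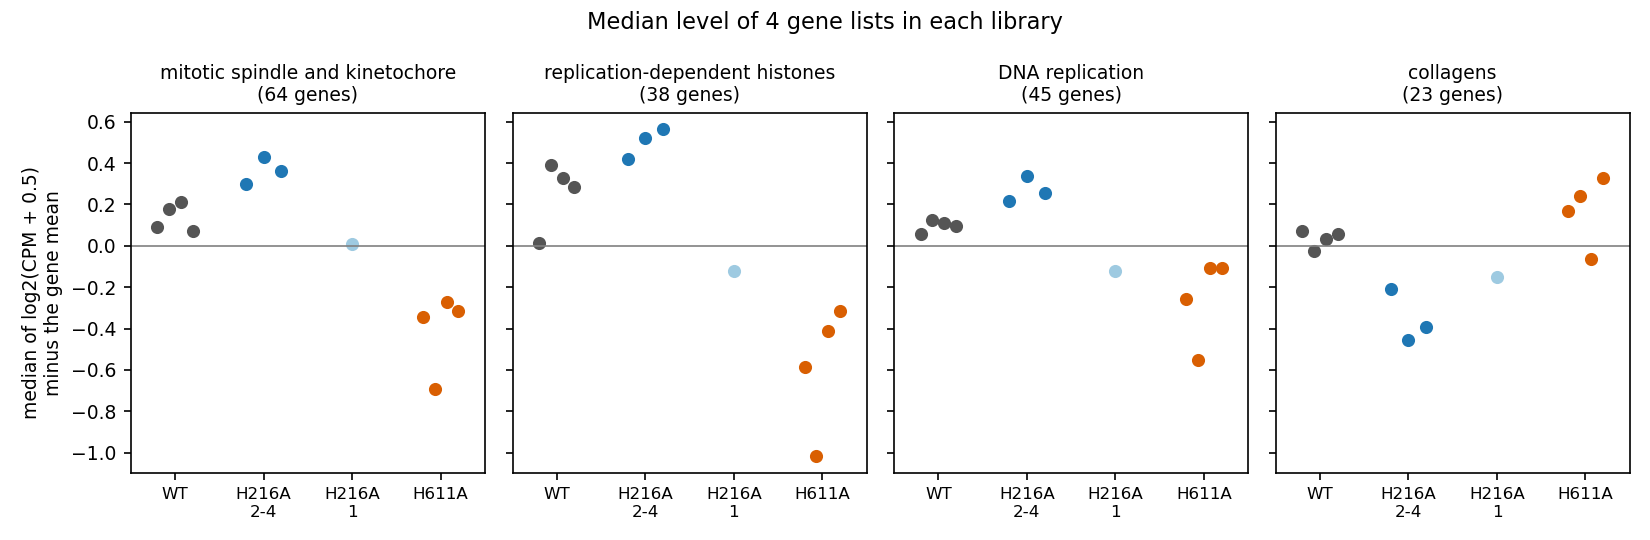
Median level of 4 gene lists in each library: for each gene, log2(CPM + 0.5) minus the mean of that gene over the 12 libraries, then the median over the tested members (y axis), by group. In the mitotic list the KDAC6H611A libraries lie at -0.69 to -0.27, KDAC6H216A replicates 2 to 4 at 0.30 to 0.43 and KDAC6H216A replicate 1 at 0.01.

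Genes of the extracellular matrix moved in both directions. Of 23 collagen genes tested, 8 were higher in KDAC6H611A and 2 lower, with a median of 0.75. The higher ones included the basement membrane collagens COL4A5 (1.55) and COL4A6 (2.72), the anchoring fibril collagen COL7A1 (2.19), the fibrillar collagens COL1A1 (2.51) and COL5A1 (0.99), and COL16A1. COL16A1 had 2.07, 1.63 and 2.01 CPM in KDAC6H216A and 13.2, 23.7, 9.06 and 12.8 CPM in KDAC6H611A (3.05, SE 0.37, adjusted p = 0.000182). COL6A3 and COL12A1 were the 2 that fell. The median was 0.47 with KDAC6H216A replicate 1 in the fit, where 6 were higher and 1 lower.

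Of 32 matrix proteases and their inhibitors, 6 were higher and 6 lower. Without KDAC6H611A replicate 2 the counts were 7 and 10, without replicate 4 they were 4 and 4, and with KDAC6H216A replicate 1 in the fit they were 5 and 3. Higher with MMP1 were the metalloprotease genes MMP9 (3.54) and MMP19 (3.25) and ADAMTS9 (1.92), as well as SERPINB2, a plasminogen activator inhibitor, which went from 3 counts to 1.65 to 3.21 CPM (ratio 29.0, 95% interval 9.61 to 142.9). PLAT, which encodes tissue plasminogen activator, rose by 0.68. Lower with SERPINB5 was TIMP3, a metalloprotease inhibitor bound to the matrix, at 36.9, 33.6 and 35.6 CPM against 4.85, 3.596, 7.66 and 6.997 CPM (-2.47, SE 0.18, adjusted p = 8.79e-06). WT libraries had 13.7 to 19.03 CPM of TIMP3, between the lines. HTRA1, ADAM10, ADAM19 and PLAUR were the other falls, by 0.59 to 1.11 on the log2 scale.

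Genes of the actin cytoskeleton and focal adhesions were lower more often than higher, 15 against 4 of 64 tested, with a median of -0.29. Apart from EPB41L3 and FLNC, the non-muscle myosin heavy chain MYH10 fell by 4.05 and the myosin light chains MYL12A and MYL12B by 1.21 and 1.49. Members associated with smooth muscle contraction or actin bundling and severing, TAGLN (1.94), MYL9 (1.55), ACTA2 (1.45) and GSN (0.86), rose. TAGLN had 4.52, 4.82 and 5.25 CPM in KDAC6H216A and 18.4, 13.6, 17.3 and 19.8 CPM in KDAC6H611A. FLNA, the most abundant member, stood at 2876, 3089 and 3118 CPM against 2442, 1712, 2455 and 2768 CPM and did not pass (adjusted p = 0.255). Of 15 integrins, 5 were lower (ITGB2, ITGA6, ITGAV, ITGB5 and ITGA4, by 0.70 to 1.43) and 2 higher (ITGB4, 2.08, which pairs with ITGA6 in hemidesmosomes, and ITGA11, 1.60, a collagen receptor subunit). With KDAC6H216A replicate 1 in the fit, 2 integrins were lower and 2 higher. In the actin and focal adhesion list 10 were then lower, with the total count only 7, and without KDAC6H611A replicate 2 26.

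Cell-cell adhesion genes comprised 12 higher and 7 lower of 48. The lower ones were led by the desmosomal cadherins DSC2 (-2.75) and DSG2 (-1.96) and by N-cadherin (CDH2, -1.78), all on chromosome 18. DSG2 had 72.8, 83.3 and 81.1 CPM in KDAC6H216A and 20.03, 14.5, 22.9 and 17.4 CPM in KDAC6H611A (SE 0.13, adjusted p = 3.54e-06). The higher ones included plakoglobin (JUP, 2.44), desmoplakin (DSP, 0.62), the tight junction protein occludin (OCLN, 1.47) and JAM2 (2.58). Of 10 mesenchymal markers tested, CDH2, TWIST1 (-1.17) and ZEB1 (-0.84) were lower and 0 higher, and vimentin (VIM) stood at 3864, 4171 and 4006 CPM against 2936, 1858, 2897 and 3313 CPM without passing (adjusted p = 0.0963). Without KDAC6H611A replicate 4, 6 cell-cell adhesion genes were higher and 6 lower, and with offsets for GC content and length 7 were higher and 11 lower (median -0.01).

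Angiogenesis factors and their receptors were lower in 14 and higher in 4 of 40 tested, with a median of -0.05. CXCL8, the chemokine interleukin-8, had 17.2, 18.3 and 20.3 CPM in KDAC6H216A and 0.249, 0.300, 0.576 and 0.835 CPM in KDAC6H611A (-5.04, SE 0.26, adjusted p = 9.08e-07), with 10.4 to 14.8 CPM in WT. THBS1, the angiogenesis inhibitor thrombospondin 1, fell by 1.55 (SE 0.18), and the hypoxia-inducible factors EPAS1 and HIF1A by 1.23 and 0.68. VEGFA (0.72) and ANGPT2 (1.44) rose. In this list 7 were higher without KDAC6H611A replicate 2 and 2 without replicate 4, 5 were lower with the total count only, and the median was 0.09 with upper quartile scaling. Among guidance genes (semaphorins, plexins, ephrins and Slit-Robo), 15 of 52 were higher and 14 lower, and their median was 0.34. DCC, a netrin receptor, went from 1 count in KDAC6H216A replicates 2 to 4 to 4.39 to 5.35 CPM in KDAC6H611A (ratio 162, 95% interval 28.6 to 6423). The class 3 semaphorins SEMA3B (3.32), SEMA3G (2.65) and SEMA3F (1.02) and the ephrin receptor EPHB3 (3.49) rose, whereas SEMA3D (-1.14), SEMA5A (-1.72), EPHB1 (-2.07) and EPHB6 (-2.18) fell. The genes named here as rising lie on chromosome 3, but so does EPHB1, and SEMA3D and EPHB6 lie on chromosome 7. With genes on chromosomes 2, 3, 7, 13, 18 and 20 left out, 8 of 31 guidance genes were higher and 7 lower.

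Smaller groups held single large changes. The small heat-shock protein gene HSPB8 had 0.283, 0.516 and 0.525 CPM in KDAC6H216A and 8.96, 6.74, 10.4 and 8.77 CPM in KDAC6H611A (4.37, SE 0.29, adjusted p = 4.14e-06), while 3 of 31 chaperone genes were higher in all and 3 lower. The Wnt receptor gene FZD3 had 0.188, 0.258 and 0.613 CPM against 20.3, 13.04, 21.98 and 13.99 CPM (5.67, SE 0.34, adjusted p = 2.65e-06), among 2 higher and 3 lower of 27 Wnt genes. HOXB13 (3.71, SE 0.39) was the 1 HOX gene of 26 that differed. EGR1, an immediate early transcription factor, had 9.04, 7.14 and 9.81 CPM in KDAC6H216A against 1.24, 1.35, 1.15 and 0.731 CPM in KDAC6H611A (-2.85, SE 0.26, adjusted p = 3.26e-05). WT had 1.48 to 1.59 CPM, at the KDAC6H611A side, and 5 of 21 immediate early genes were lower and 1 higher. Interferon-stimulated genes had 4 of 40 higher (10.0%), among them HERC5 (2.94) and IFITM1 (2.81), and 2 lower (5.0%). The shares called in the chaperone, Wnt and interferon lists were near or below those over all genes tested, 9.80% higher and 9.68% lower.

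Of 43 genes of the TGF-beta and BMP pathway, 10 were lower (23.3%, against 9.68% over all genes tested) and 3 higher (7.0%, against 9.80%). Without KDAC6H611A replicate 2 the counts were 12 and 7. With genes on chromosomes 2, 3, 7, 13, 18 and 20 left out, 4 of 25 were lower and 2 higher. The signal transducers SMAD4 (-1.23), SMAD2 (-0.79) and the inhibitor SMAD7 (-1.21), all on chromosome 18, were among the falls, and INHBE, an activin subunit, rose by 3.68 (SE 0.29, adjusted p = 1.43e-05). The Hippo kinase LATS2 on chromosome 13 fell by 1.17 (SE 0.11), in a list with 3 lower and 1 higher of 27. Microtubule-associated proteins and motors were lower in 7 and higher in 3 of 42. All 7 of the lower ones, among them the end-binding protein MAPRE2 and the katanin-like KATNAL1, lay on chromosomes 2, 13 and 18, and MAP1A (2.24, SE 0.17) and VASH1 (1.38, SE 0.19), a tubulin detyrosinating enzyme, were the largest rises. Complex I and ATP synthase subunits encoded in the nucleus were lower in 5 and higher in 0 of 54, a share near that over all genes, led by ATP5F1A on chromosome 18 (-1.34, SE 0.17). That count was 2 without KDAC6H611A replicate 4, 9 without replicate 2 and 1 with KDAC6H216A replicate 1. Of the 13 mitochondrially encoded mRNAs 0 passed by edgeR, with 5 at an unadjusted p under 0.05, and 1 was higher by DESeq2. Their median was 0.70, and 0.19 without KDAC6H611A replicate 2. Aggresome and autophagy receptor genes had 1 higher and 3 lower of 22, cytokines 2 and 3 of 13, and cancer-testis antigens of chromosome X 3 and 2 of 20. Whether these small counts differ from the shares over all genes, 9.80% higher and 9.68% lower, was not tested. With the total count only they were 0 and 0, 1 and 2, and 3 and 1.

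**Figure D4:**
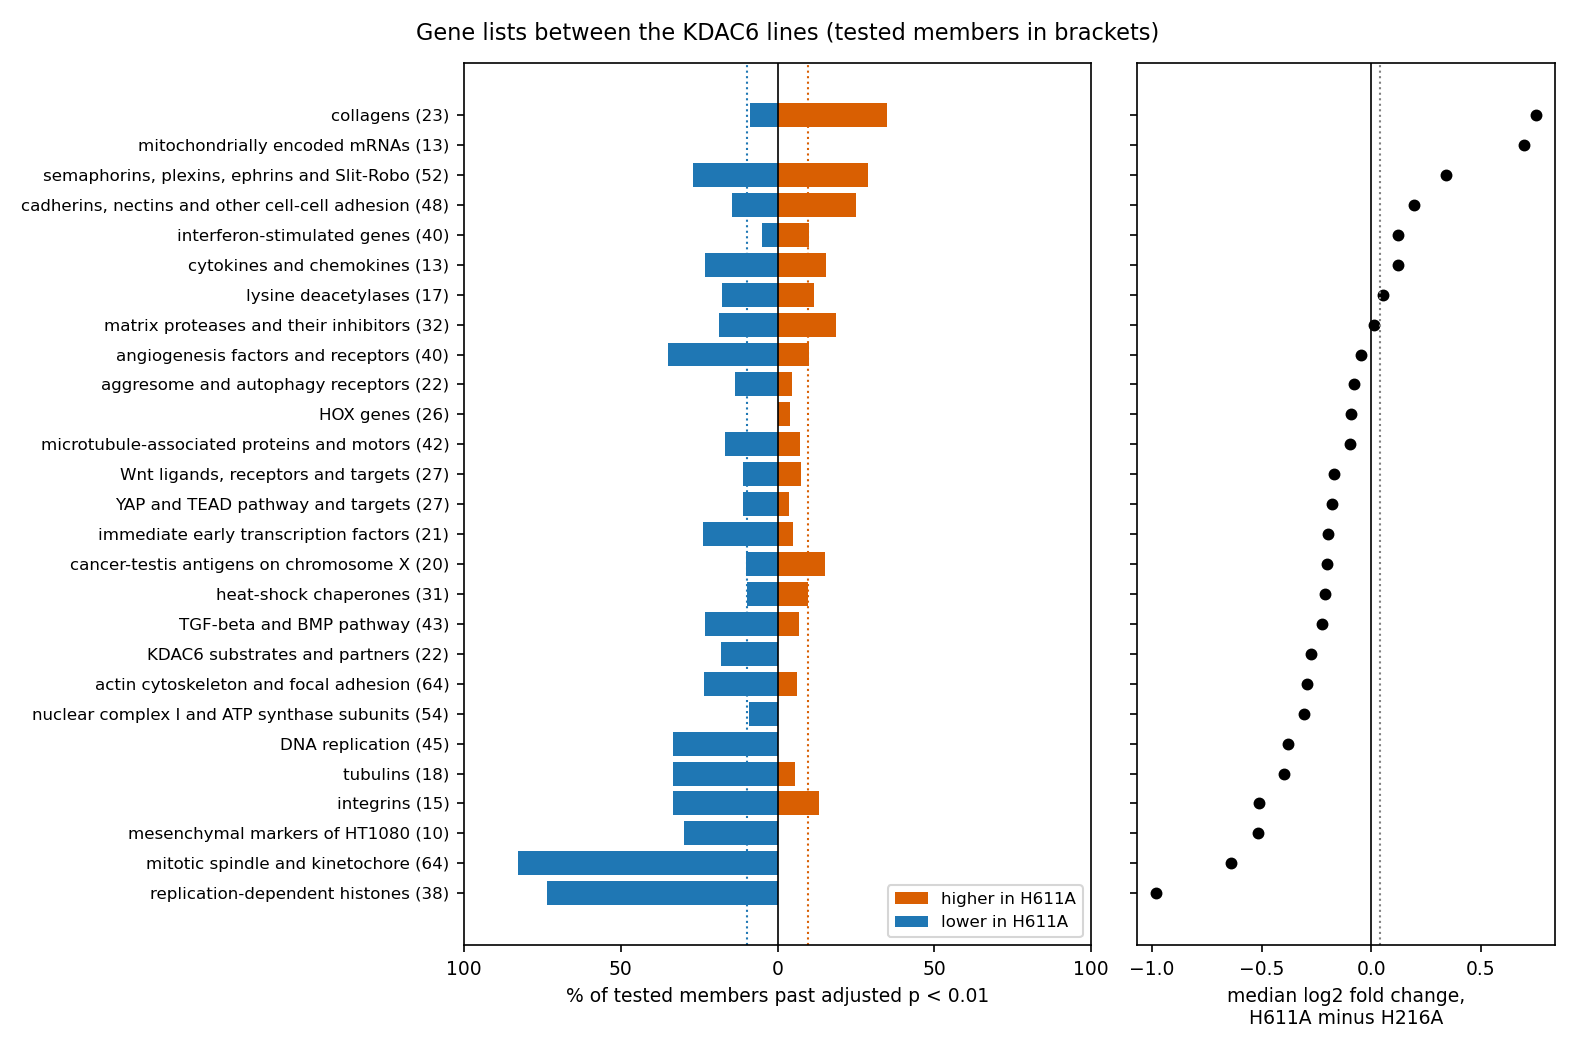
Left, percent of the tested members of each list (their number in brackets) past adjusted p below 0.01 and higher (orange) or lower (blue) in KDAC6H611A; dotted lines mark 9.80% and 9.68%, the shares over all genes tested. Right, the median log2 difference of all tested members, with the median of all genes, 0.04, dotted; mitotic and histone lists lie at -0.64 and -0.98 and collagens at 0.75.

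The lines also differed by chromosome. On chromosome 18, 127 of 237 genes tested were lower in KDAC6H611A (53.6%) and 7 higher, with a median log2 difference of -0.80. On chromosome 13, 98 of 269 were lower (36.4%) and 18 higher, with a median of -0.44. Chromosome 2 was uneven: in its first 100 Mb the median was -0.09 with 43 of 458 genes lower, and from 100 Mb on it was -0.42 with 193 of 547 lower (35.3%) and 15 higher. On chromosome 20 the first 30 Mb had 49 of 123 genes lower (39.8%) and 1 higher, and the rest 21 of 255 lower.

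Chromosome 7 held both directions. In its first 60 Mb 81 genes were lower (34.6% of those tested there) and 8 higher, with a median of -0.42, and beyond 60 Mb 9 of 536 were lower and 120 higher (22.4%), with a median of 0.40. In the first 80 Mb of chromosome 3, 79 of 418 genes were higher (18.9%) and 5 lower, and the median was 0.27. Every stretch of 10 Mb with at least 10 tested genes had a median below 0 on chromosome 18, on chromosome 2 beyond 100 Mb, in the first 60 Mb of chromosome 7 and in the first 30 Mb of chromosome 20. The breaks at these positions were chosen after the values were seen. Chromosomes 2, 7, 13, 18 and 20 held 17.03% of the genes tested and 41.1% of those lower in KDAC6H611A (621 of 1511).

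The chromosome medians stood out in KDAC6H611A rather than KDAC6H216A when each line was set beside WT. For chromosome 18 the median difference in log2(CPM + 0.5) was -0.78 for KDAC6H611A minus WT and 0.10 for KDAC6H216A replicates 2 to 4 minus WT, and for chromosome 13 it was -0.48 and 0.05. Chromosome 18 kept a median of -0.88 to -0.78 in all fits that left out a library, and it was -0.66 with upper quartile scaling and -0.89 with the total count only. DNA copy number was not measured. The named genes on chromosome 18 include EPB41L3, SERPINB5, NDC80, DSG2, DSC2, CDH2, SMAD2, SMAD4, SMAD7 and ATP5F1A, which fell, but also DCC and SERPINB2, which rose. This is not a full list of the named genes there.

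**Figure D5:**
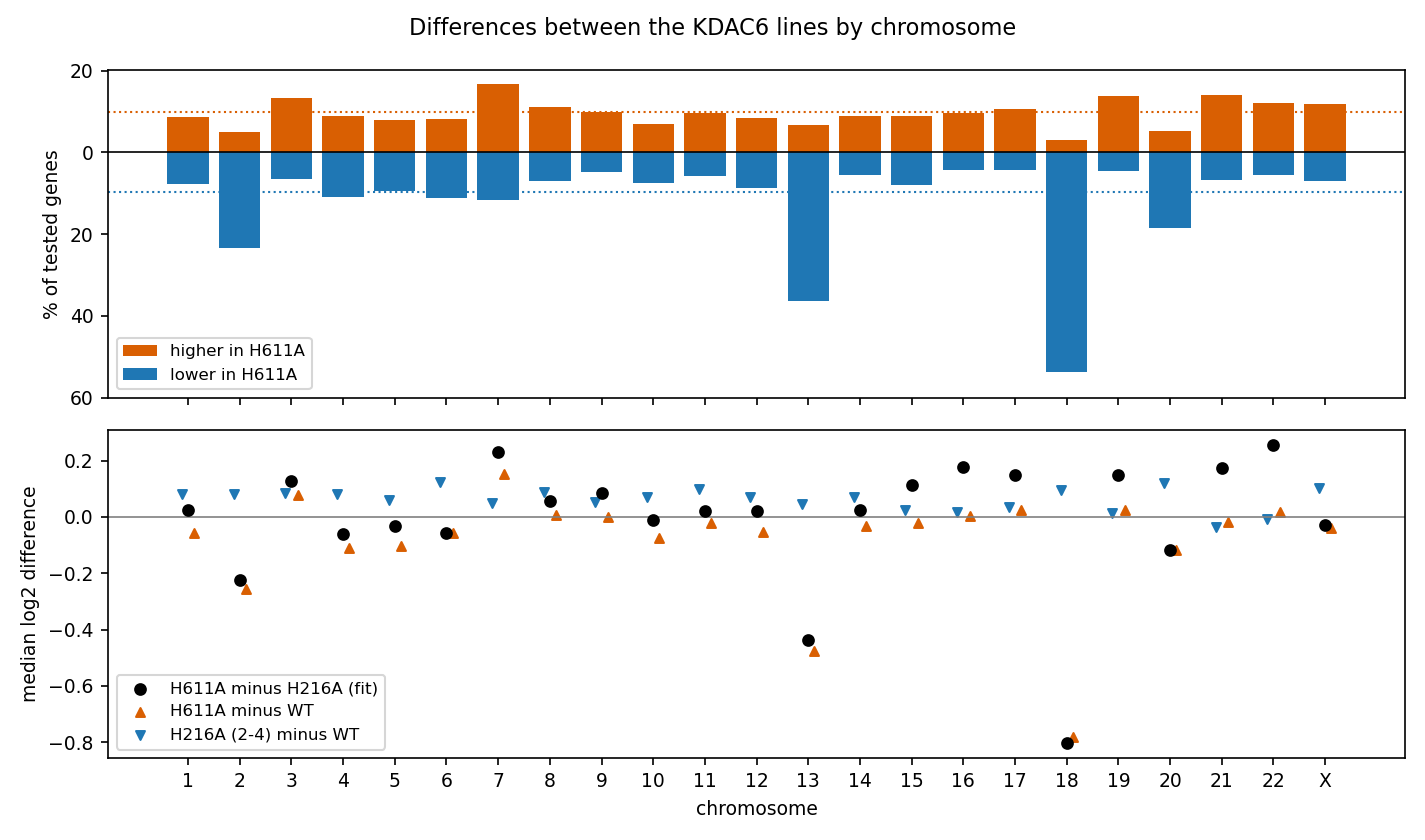
Upper panel, percent of the genes tested on each chromosome that were higher (orange, up) or lower (blue, down) in KDAC6H611A, with the shares over all genes dotted. Lower panel, median log2 difference on each chromosome for KDAC6H611A minus KDAC6H216A, and for each line minus WT; chromosome 18 lies at -0.80 between the lines and at 0.10 for KDAC6H216A minus WT.

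The differences in mitotic genes were not confined to these chromosomes. With genes on chromosomes 2, 3, 7, 13, 18 and 20 left out, 42 of 51 mitotic genes were lower with a median of -0.61, against 832 of 12068 genes tested, and 9 of 33 DNA replication genes were lower. All 38 histone genes tested lie elsewhere. Of the collagens, 7 of 16 were higher and 1 lower. Over the same 12068 genes tested, 1189 were higher (9.85%) and 832 lower (6.89%). Among microtubule-associated proteins 0 of 24 were then lower, and among complex I and ATP synthase subunits 1 of 42. In the actin and focal adhesion list 7 of 45 were lower and 3 higher, and in the integrin list 1 of 10 was lower and 2 were higher.

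Finally, the WT level was placed between or beside the lines for each gene that passed. Of the 1511 genes lower in KDAC6H611A, the WT mean lay between the lines for 1359 (89.9%) and nearer to KDAC6H216A for 1277 (84.5%). Of the 1530 higher genes it lay between for 1235 (80.7%) and nearer to KDAC6H216A for 1003 (65.6%). Scaled by the total count only, the WT mean was nearer to KDAC6H216A for 1129 of the lower and 1066 of the higher genes. MMP1, MAGEC2, TIMP3 and TFRC are examples in which WT lay between and both lines departed from it in opposite directions, in HDAC9 the KDAC6H216A range overlapped WT, and in HDAC6 the KDAC6H611A range did. These placements are descriptions, with no test. The genes were selected because the lines lay apart, which favours a WT level between them, and the shares were not taken over all genes tested.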

How the data were processed

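RNA depleted of rRNA was sequenced by the authors as paired ends. They trimmed reads with Trimmomatic 0.39, aligned them with Bowtie2 2.4.5 to GRCh38 and counted them with RSEM 1.3.3; the annotation release and any use of strand are not given in the sources used here. The deposited table holds expected counts per gene, not scaled for depth or length. Groups came from column names matched to sample titles, and 0 columns were left unused. The labels do not say that the replicates of a line were separate cultures, which the methods call biological replicates, so p-values measure the spread between these libraries.

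Expected counts were rounded and compared in edgeR 4.0.16 (R 4.3.3; filterByExpr by line, TMM, glmQLFit, glmQLFTest) with Benjamini-Hochberg adjustment over all 15615 genes tested and the threshold of 0.01 of the study. Differences are KDAC6H611A minus KDAC6H216A, and SEs are the size over the square root of F. Fold changes come from the 7-library fit and CPM from 12 libraries. Where a line had 0 counts, the fold was bounded with 3 counts over the line; with 1 to 3 counts the ratio has an exact conditional interval. Genes were placed by GENCODE release 44 (56558 of 60675 matched by identifier), whose symbols are used. Summaries and figures were made with matplotlib 3.10.9, scipy 1.17.1, pandas 2.3.3 and python 3.11.15.

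The members and gene lists were chosen with earlier results of these data known. Genes were named as follows: deacetylases; the 10 largest and 10 smallest log2 differences among called protein-coding genes whose lines did not overlap and reached 1 CPM in one of them; the 5 largest and 5 smallest CPM differences; per list the 2 largest and 2 smallest called members and the most abundant; and called KDAC6 substrates or partners. Other list members, and genes in the closing section outside that rule, were chosen after their values were seen. Alternatives were DESeq2 1.42.0, other scalings and filters, smooth GC and length offsets (mgcv 1.9.3), thinning, the replicate block, other sets of libraries and genes, and each library left out. Leaving out chromosomes was added after seeing the data. The fits were tested on simulated data. Library pairs of a group differed by a chi-square of at least 2.68 per degree of freedom, above sampling noise.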

Additional observations from a re-analysis of the deposited data

Results flagged for a closer look

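Within the 4 libraries of a line, 1 library lay far from the others in 8 of 148 groups of values examined, by Dixon's gap ratio. Chance flags about 1 in 20 independent groups. These groups share libraries and are not independent, so the number of flags cannot be judged against that rate. In KDAC6H216A, replicate 1 had a total count of 6837484 before rounding against 10948502 to 11737887 in the others, and 0.195% of its counts came from mitochondrial rRNA genes against 13.1% to 15.1%. That is the library kept out of the comparison. In KDAC6H611A, replicate 2 stood apart for HDAC1 (46.2 CPM against 65.0 to 66.7 CPM) and for the transcription factor gene FOSL2 (218 CPM against 268 to 270 CPM). It was also the only KDAC6H611A library with 0 counts of FOSB, at 0 CPM against 0.522 to 0.622 CPM. The other flags rest on a single count: BEX1 and GDNF at 0.124 CPM in replicate 1 and EDNRA at 0.150 CPM in replicate 2, with 0 in the other libraries of the line.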

How the results depend on the processing

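The count of 3041 genes moved by more than 1.5 times with KDAC6H216A replicate 1 included (1485), the WT libraries in the fit (4682), no filter (4966), the total count only (1945), an adjusted p below 0.05 (6195), a minimum absolute log2 difference of 1 (1570) and chromosomes 2, 3, 7, 13, 18 and 20 left out of the count (2021). It ran from 1087 to 4327 when 1 library was left out. It stayed within 1.5 times with DESeq2 (4231), the offsets for GC content and length (3707) and thinning (2649). The HDAC6 difference was positive in every fit, from 0.92 to 1.34. It ran from 1.08 to 1.29 when 1 library was left out and lost its call without KDAC6H216A replicate 3, at 1.09. Of the 107 other named genes past the threshold, 62 kept their direction and call in every fit that tested them, and none changed direction. The losses were most frequent without KDAC6H216A replicate 3 (39 genes), 4 (33) or 2 (28), with the total count only (30), without KDAC6H611A replicate 1 (25) and with KDAC6H216A replicate 1 included (24).

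Replicate numbers were shared by the lines, but deviations of same-numbered libraries correlated by 0.21, 0.18 and 0.03 for replicates 2, 3 and 4, so the numbers were not taken to pair the samples. With the replicate block, which leaves out KDAC6H611A replicate 1, 4147 genes were called and HDAC6 differed by 1.13; with the block and the GC and length offsets it was 4294 and 0.92. KDAC6H611A replicate 4 correlated best with KDAC6H216A replicate 3 (0.10), not with its own number.

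With 3 counts as the floor, a gene without a count could lie at up to 0.235 to 0.410 CPM in a KDAC6H611A library and 0.256 to 0.274 CPM in KDAC6H216A replicates 2 to 4. The other libraries of the series were not used.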

Other observations

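At other places, picked after their values were seen, some but not all neighbouring genes moved in the same direction. Between 140 and 150 Mb of chromosome X, 5 of 14 genes tested were higher in KDAC6H611A (35.7%, against 9.80% over all genes tested) and 0 lower. Besides MAGEC2, SLITRK4 and AFF2 these included SLITRK2, related to SLITRK4, with a mean of 1.51 CPM in KDAC6H611A and no count in KDAC6H216A replicates 2 to 4. Farther along the chromosome, the adjacent genes AVPR2, a vasopressin receptor, and ARHGAP4 rose by 5.20 and 4.28 on the log2 scale, from means of 0.260 and 4.09 CPM to 9.55 and 73.9 CPM. WT had means of 0.870 and 7.04 CPM. Chromosome 8, which was not among the chromosomes left out above, also held such a stretch. Between its 140 and 150 Mb, 25 of 82 genes tested were higher (30.5%) and 1 lower.

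Around MDM2 on chromosome 12, the next gene, CPM (carboxypeptidase M), rose by 2.97 from a mean of 1.38 to 10.1 CPM, and LYZ rose by 1.57. Their neighbours NUP107 and RAP1B fell by 0.61 and 0.51.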
